A study of Mus musculus with 14 samples.

Results

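The genes described here encode the machinery that stores neurotransmitter in vesicles and releases it at the presynaptic terminal. They were picked by gene name. The rule used none of their measured values, but the members were chosen with earlier results of these data known. They number 48 of the 55401 genes in the count table. They comprise 9 SNAREs and SNARE regulators, 13 calcium sensors and complexins, 10 vesicle proteins, 12 active zone proteins and 4 endocytic proteins. Beside complexins, the group called calcium sensors holds every listed synaptotagmin, Doc2a, Doc2b and Rph3a, whether or not each acts as a calcium sensor. All 48 passed the filter on low counts and entered the test.

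RNA was measured in 14 tubes of mouse neurons from the region the labels call PiC. The groups were male PiC-MeA (n = 3), female PiC-MeA (n = 3), male PiC-PrL (n = 4) and female PiC-PrL (n = 4), all from wild-type C57BL/6 mice that had received recombinant AAV. A volume of 0.1 µl of AAVretro-EGFP, a virus that is taken up by axon endings, had been placed in MeA or in PrL, so that PiC neurons projecting there became green. Each tube pooled 4 to 5 green cells drawn into a micropipette with a tip of 60 to 100 µm, and its polyadenylated RNA was amplified with SMART-Seq2. The sources used here do not give the age of the mice or say whether tubes of a group came from separate animals, so p-values measure only the spread between these tubes. The labels' abbreviations PiC, MeA and PrL are kept as they are.

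Total counts ran from 6132985 to 15392217 per library. They were 6132985 to 10572618 in male PiC-MeA and 11755389 to 15392217 in all other libraries. The 3 male PiC-MeA libraries had a count for 18964 to 20014 genes, against 12479 to 14908 genes in the other 11 libraries. Between 45 and 48 of the 48 members had a count in each library, and the members together took 1.93% to 2.82% of all counts. The neuron label was checked against marker genes: Rbfox3 (at least 46.5 CPM, counts scaled to library size) and Map2 (209 to 795 CPM) were found in all 14 libraries, while Tubb3 and Nefl, which most neurons express, were listed at 0 in all 14.

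Release begins when a SNARE on the vesicle (Vamp1 or Vamp2) zips together with SNAREs on the plasma membrane (Snap25 and Stx1a) and pulls the membranes into contact. Synaptotagmins and complexins hold this reaction back until calcium enters, and active zone proteins such as Unc13a and the Rims proteins prepare vesicles beside calcium channels. After fusion, Nsf and its adaptor Napb take the SNARE complexes apart, and endocytic proteins such as Dnm1 retrieve the membrane.

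Promoter windows are shown for 4 members to which the results below return: Napb and Nsf, the pair that recycles SNARE complexes, Syt11, a synaptotagmin not known as a sensor for fast release, and Sv2b, a vesicle glycoprotein. Each window comes from RefSeq (GRCm38.p6), runs 5′ to 3′ on the gene's strand, here the minus strand, and holds 250 bases before and 50 bases after a start site; the window of Sv2b is 1 of 4 listed. The window of Syt11, the only one listed for it, lies inside the gene as annotated in GENCODE M21 (88744700 to 88775164). Capitals mark matches to the motifs named below.
Napb (chr2:148732371-148732670): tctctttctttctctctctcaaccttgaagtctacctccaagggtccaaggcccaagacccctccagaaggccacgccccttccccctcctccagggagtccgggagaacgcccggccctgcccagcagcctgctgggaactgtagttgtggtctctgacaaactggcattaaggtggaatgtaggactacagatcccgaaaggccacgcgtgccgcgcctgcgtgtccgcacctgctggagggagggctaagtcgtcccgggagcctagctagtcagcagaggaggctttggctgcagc
Nsf (chr11:103954007-103954306): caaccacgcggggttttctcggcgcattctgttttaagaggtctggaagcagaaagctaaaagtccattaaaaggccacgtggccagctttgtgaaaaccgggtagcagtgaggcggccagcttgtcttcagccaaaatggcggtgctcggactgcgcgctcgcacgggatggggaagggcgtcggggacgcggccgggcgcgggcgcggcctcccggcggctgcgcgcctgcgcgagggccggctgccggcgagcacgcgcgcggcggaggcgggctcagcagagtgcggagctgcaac
Syt11 (chr3:88772550-88772849): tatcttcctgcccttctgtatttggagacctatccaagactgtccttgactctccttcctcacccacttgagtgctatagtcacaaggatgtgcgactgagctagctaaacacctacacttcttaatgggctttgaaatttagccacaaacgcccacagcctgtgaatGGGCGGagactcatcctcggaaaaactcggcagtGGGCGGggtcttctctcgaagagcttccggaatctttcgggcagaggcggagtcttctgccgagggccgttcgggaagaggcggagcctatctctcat
Sv2b (chr7:75309213-75309512): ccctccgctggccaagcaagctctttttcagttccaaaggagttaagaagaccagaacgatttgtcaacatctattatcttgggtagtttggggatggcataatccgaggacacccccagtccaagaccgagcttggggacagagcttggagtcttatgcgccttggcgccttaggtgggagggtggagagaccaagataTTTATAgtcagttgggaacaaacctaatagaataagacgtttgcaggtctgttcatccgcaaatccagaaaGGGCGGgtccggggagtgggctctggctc

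RefSeq windows were found for 37 of the 48 members, 46 windows in all, and none was used for Snap25. Motifs were searched on both strands in these and in all 32851 windows. The GC box GGGCGG stood in 67.4% of the members' windows and in 35.7% of all windows, and the median GC content was 62.5% in the members' windows and 52.7% in all. The cAMP response element TGACGTCA stood in 4.35% of the members' windows (those of Sh3gl2 and Syn1) and in 1.79% of all, and its shorter form TGACG, which the longer one contains, in 17.4% and 20.8%. CCAAT stood in 28.3% of the members' windows against 37.4% of all, TATAAA in 4.35% against 13.6%, and GGACAGC, part of the RE1 element, in 6.52% against 6.56%. In the printed windows Syt11 has the GC box at -82 and -48 from the start, Sv2b has TATAAA on the other strand at -50 and a GC box at 22, and none of these letters stands in the windows of Napb or Nsf. A match is a run of letters, not a site shown to be used.

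Snap25 was the most abundant member per exonic kilobase in all 14 libraries. Its median was 1279 CPM per kilobase (624 to 2437), and it alone held up to 49.4% of the members' counts in a library. Snap47, a relative of Snap25, followed at a median of 328 CPM per kilobase (64.8 to 428), then the vesicle protein Syngr3 at 249 (109 to 380), Syt11 at 241 (99.8 to 452) and Napb at 222 (145 to 391). The ranges of these 4 overlapped each other, so their order does not go beyond the spread between libraries. Syt1, the main calcium sensor of fast release, had a median of 179 CPM per kilobase, Nsf 164 and Stx1a 147. The vesicle SNARE Vamp2 stood at 97.5 CPM per kilobase, far above its paralogue Vamp1 at 2.75.

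At the low end were Rims1, a scaffold of the active zone, at 0.301 CPM per kilobase, Sv2c at 0.283, Doc2a, a calcium-binding protein linked to spontaneous and asynchronous release, at 0.129, Syt2 at 0.103 and Cplx3 at 0.0109. Cplx3, a complexin best known from retina, had no count in 7 libraries and 1845 counts in male PiC-PrL replicate 2. Syp, a classical vesicle marker, was also low at 2.24 CPM per kilobase. Spread between libraries of a group differed widely between members: the within-group SD of log2(CPM + 1) was 0.31 for Nsf and for Napb, 0.36 for the endocytic protein Sh3gl2 and 0.37 for Snap25, against 2.19 for Vamp1 and 2.26 for Synpr.

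**Figure D1:**
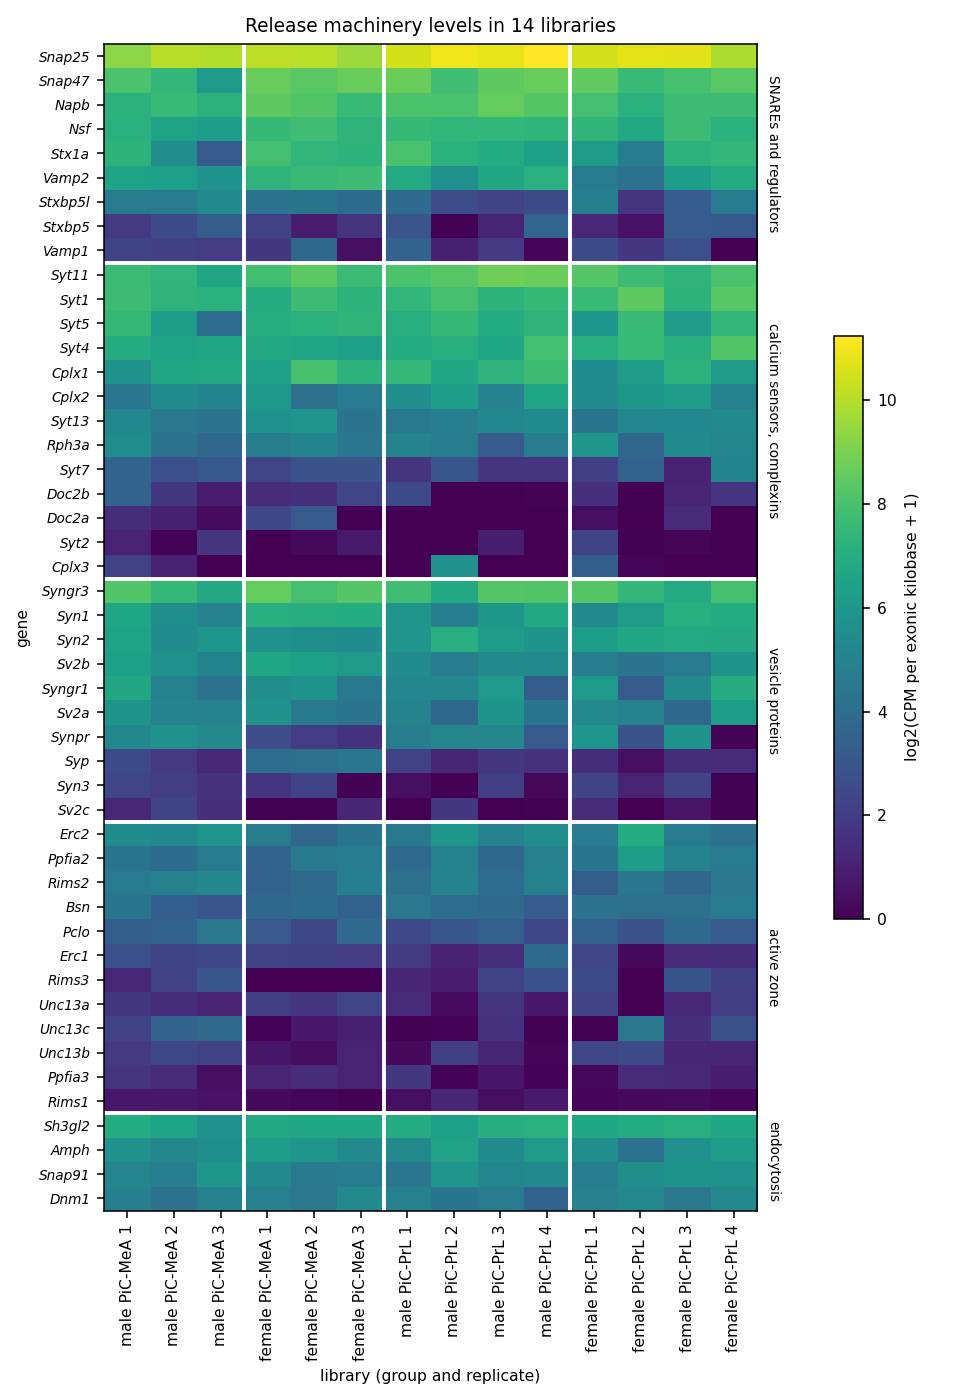
Level of each of the 48 members (rows, by role and falling level) in each of the 14 libraries (columns), as log2(CPM per exonic kilobase + 1). Snap25 is the brightest row in every column, and the low rows Cplx3, Doc2a, Syt2 and Sv2c are at or near 0 in many libraries.

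The 7 comparisons were read from a single edgeR quasi-likelihood fit of all 14599 genes tested, with Benjamini-Hochberg adjustment over all of them and a threshold of 0.05. The comparisons share libraries, so their values are given side by side and not counted as repeats of each other. In PiC-MeA minus PiC-PrL averaged over both sexes 1 member passed, Snap25, which was lower in PiC-MeA, where 0.822% of all genes passed. No member passed in PiC-MeA minus PiC-PrL in males, where 0.603% of genes passed, nor in females, where 0% did. None passed for male minus female in PiC-MeA neurons (0% of genes), in PiC-PrL neurons (0%) or averaged over both projections (0.0137%), nor for the interaction, which is the sex difference in PiC-MeA minus that in PiC-PrL (0%).

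At an unadjusted p under 0.05, 4 members were higher and 5 lower in PiC-MeA males (17.3% and 4.89% of genes), and 3 higher and 7 lower in PiC-MeA females (5.78% and 5.31%). For sex in PiC-MeA neurons 2 members were higher and 4 lower in males (10.3% and 2.05% of genes), and in PiC-PrL neurons 3 higher and 2 lower (5.56% and 8.78%). Averaged over both projections 3 were higher and 2 lower in males (7.6% and 3.06%), averaged over both sexes 4 were higher and 5 lower in PiC-MeA (12.1% and 5.27%), and for the interaction 4 were positive and 6 negative (11.8% and 3.75%). The DESeq2 Wald test called 5 members in PiC-MeA minus PiC-PrL in males (14.8% of genes) and 3 in females (4.59%), 3 for sex in PiC-MeA neurons (5.68%) and 0 in PiC-PrL neurons (7.59%). It called 1 for sex on average (4.92%), 4 for projection on average (10.9%) and 4 for the interaction (8.46%). With limma voom 7 members passed in PiC-MeA minus PiC-PrL in males (17.9% of genes), 0 in females (0.212%), 7 for sex in PiC-MeA neurons (12.1%) and 0 in PiC-PrL neurons (0.0548%). It called 0 for sex on average (0.0274%), 2 for projection on average (8.75%; Rims3 and Sv2b, not Snap25) and 4 for the interaction (4.99%). Over all members the median fitted log2 change lay between -0.18 and 0.02 in the 6 comparisons of groups, beside -0.06 to 0.16 over all genes, and was 0.35 beside 0.31 for the interaction. For sex, 22 members had a fitted change above 0 in PiC-PrL neurons (48.7% of all genes), 24 in PiC-MeA neurons (53.6%) and 18 on average (51.8%). For projection, 22 were above 0 in females (47.5%), 24 in males (53.4%) and 23 on average (52.4%), and 28 were above 0 for the interaction (54.8%).

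Among the SNAREs, Snap25, a SNARE of the plasma membrane (chromosome 2, 136713453 to 136782428, mm10), was lower in PiC-MeA than in PiC-PrL neurons. It had 4238, 7262 and 6682 CPM in male PiC-MeA libraries and 7492, 7315 and 5180 CPM in female PiC-MeA libraries, against 10051, 14108, 12491 and 16546 CPM in male PiC-PrL and 9878, 12083, 11612 and 6285 CPM in female PiC-PrL libraries. All PiC-MeA libraries lay below all PiC-PrL libraries except female PiC-PrL replicate 4, which lay among them. The group means were 6061 ± 1605 CPM in male PiC-MeA (SD, n = 3) and 6662 ± 1287 CPM in female PiC-MeA (n = 3), against 13299 ± 2733 CPM in male PiC-PrL (n = 4) and 9965 ± 2630 CPM in female PiC-PrL (n = 4). Averaged over both sexes the fitted log2 change was -0.86 ± 0.18 (SE, adjusted p = 0.0363, edgeR), and it was -1.13 ± 0.26 in males (adjusted p = 0.0592), where the groups did not overlap.

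In bulk tubes, fewer cells of a type and less RNA per cell cannot be told apart. The Snap25 call held in 12 of 23 other settings, with adjusted p from 1.24e-14 to 1.0. It was lost with limma voom (log2 -0.73, adjusted p = 0.0593), with DESeq2 size factors (-0.83, 0.0517), with a filter of 10 counts in 7 libraries (-0.82, 0.0775) and with a replicate block (-0.89, 0.0775). It was also lost without male PiC-PrL replicate 2 (-0.84, 0.0840), 3 (-0.87, 0.0561) or 4 (-0.80, 0.0916), without female PiC-PrL replicate 2 (-0.80, 0.0773) or 3 (-0.91, 0.0523), and with 3 PiC-PrL libraries removed that had the fewest genes at 10 counts (male 2 and 4, female 2; -0.73, 0.203). After adjustment for how many genes each library detected, the log2 change was -0.12 (adjusted p = 1.0), and it was 0.28 in males. Detected genes ran from 18964 to 20014 in male PiC-MeA and from 12479 to 14908 in all other libraries. Here and below, values after this adjustment therefore cannot be told apart from the difference of the male PiC-MeA group itself. No gene passed in any comparison after it.

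Napb, the adaptor that brings Nsf to SNARE complexes, gave opposite fitted sex differences in the PiC-MeA and PiC-PrL neurons. It stood at 1060, 1333 and 1050 CPM in male PiC-MeA against 2487, 2068 and 1350 CPM in female PiC-MeA libraries, and at 1853, 1849, 2755 and 2172 CPM in male PiC-PrL against 1649, 1024, 1473 and 1478 CPM in female PiC-PrL libraries. Every male PiC-MeA library was below every female one, and every male PiC-PrL library above every female one. The fitted male minus female changes were -0.78 ± 0.28 in PiC-MeA (adjusted p = 0.299, edgeR) and 0.62 ± 0.24 in PiC-PrL (adjusted p = 0.283). Their difference was -1.40 ± 0.37 and did not pass (adjusted p = 0.152). Between the projections in males, Napb was lower in PiC-MeA without overlap (-0.91 ± 0.27, adjusted p = 0.0790).

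Nsf, the ATPase that uses this adaptor, had 1174, 749 and 651 CPM in male PiC-MeA against 1565, 1881 and 1328 CPM in female PiC-MeA libraries, again with no overlap (log2 -0.89 ± 0.29, adjusted p = 0.298, edgeR). In PiC-PrL it was level, at 1384 to 1536 CPM in males and 933 to 1753 CPM in females. Snap47 stood at 699, 458 and 172 CPM in male PiC-MeA against 1064, 871 and 1037 CPM in female PiC-MeA libraries (-1.16 ± 0.41, adjusted p = 0.298). None of these sex differences passed the adjusted threshold.

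As a group, 7 of the 9 SNAREs and SNARE regulators, here called SNARE genes, had a negative fitted male minus female change in PiC-MeA neurons. Their median was -0.78 beside 0.12 over all genes. For 5 of them every male PiC-MeA library was below every female one (Napb, Nsf, Snap47, Stx1a and Vamp2), and for 1, Stxbp5l, every male library was above; over all genes 8.76% did not overlap lower and 17.5% higher. In PiC-PrL neurons 8 of 9 had a positive male minus female change with a median of 0.29 beside -0.02 over all genes, but only Napb did not overlap (1.49% of genes did so higher and 2.02% lower). The sum of the SNARE genes without Snap25 was 2623 to 3980 CPM in male PiC-MeA against 5126 to 6592 CPM in female PiC-MeA libraries, and 4474 to 6004 CPM in male PiC-PrL against 2665 to 4870 CPM in female PiC-PrL libraries. In every group the regulators Napb and Nsf had the highest means in this sum. The median in PiC-MeA neurons stayed below 0 in all 24 other settings (-1.89 to -0.61) and that in PiC-PrL neurons above 0 in all 25 (0.15 to 0.48). Some of these settings left out only libraries of the other projection, which bear on the comparison only through the shared fit. Between the projections 7 of 9 SNARE genes had a negative PiC-MeA minus PiC-PrL change in males (median -0.75 beside 0.16 over all genes) and 7 of 9 a positive one in females (median 0.39 beside -0.06).

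Vamp2, the synaptobrevin of most forebrain vesicles, stood apart in female PiC-MeA neurons. It had 344, 306 and 198 CPM in male PiC-MeA and 599, 750 and 826 CPM in female PiC-MeA libraries, against 448, 187, 399 and 526 CPM in male PiC-PrL and 90.8, 65.8, 302 and 447 CPM in female PiC-PrL libraries. Every female PiC-MeA library was above every library of the other groups (PiC-MeA minus PiC-PrL in females 1.68 ± 0.54, adjusted p = 0.403, edgeR). Stxbp5l, a tomosyn, which binds SNAREs in an inactive form, stood at 208, 201 and 350 CPM in male PiC-MeA against 123, 45.8, 34.1 and 43.1 CPM in male PiC-PrL libraries (2.04 ± 0.68, adjusted p = 0.0934). Its male groups did not overlap, as was so higher for 19.2% of all genes, and the change turned to -4.38 after adjustment for how many genes each library detected.

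**Figure D2:**
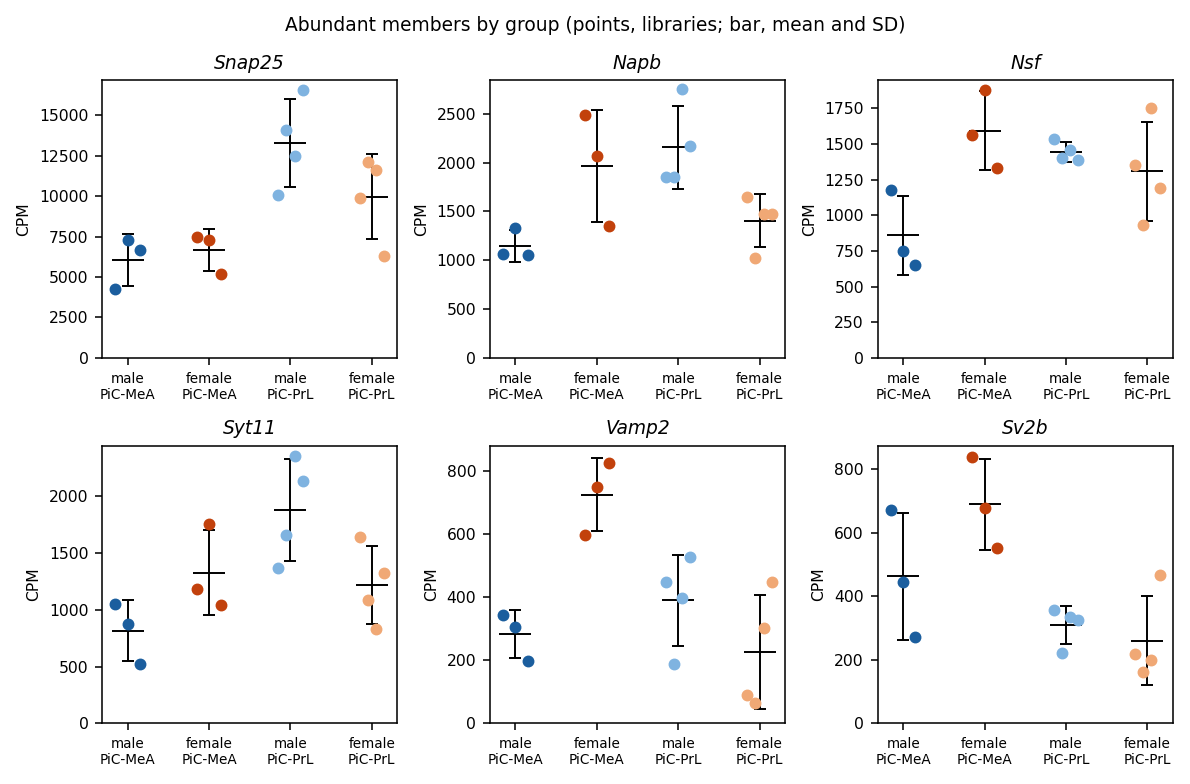
CPM of 6 abundant members in each library (points) by group, with the mean and SD as bars. Snap25 is lower in both PiC-MeA groups than in male PiC-PrL, for Napb and Nsf the male PiC-MeA points lie below the female ones, and the means of Sv2b and Vamp2 are highest in female PiC-MeA.

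Among the calcium sensors and complexins no member passed in any comparison. For sex, 6 of the 13 had a positive male minus female change in PiC-MeA neurons (median -0.05) and 5 in PiC-PrL neurons (median -0.16). Syt11 had 1049, 877 and 519 CPM in male PiC-MeA against 1369, 1657, 2354 and 2136 CPM in male PiC-PrL libraries, which did not overlap (log2 -1.20 ± 0.32, adjusted p = 0.0790, edgeR; 6.23% of genes did not overlap lower). In females it had 1045 to 1752 CPM in PiC-MeA and 834 to 1640 CPM in PiC-PrL libraries. Its interaction was -1.32 ± 0.44 (adjusted p = 0.163), and after adjustment for how many genes each library detected the direction turned in males (0.79) and in the interaction (0.63). Syt4, which is not a sensor for fast release, was at 423, 387 and 309 CPM in female PiC-MeA against 522, 768, 516 and 1133 CPM in female PiC-PrL libraries, with no overlap (-0.98 ± 0.37, adjusted p = 0.403; 3.97% of genes did not overlap lower).

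Syt1 itself stood at 1224 to 1758 CPM in male PiC-MeA, 1023 to 1757 CPM in female PiC-MeA, 1273 to 2008 CPM in male PiC-PrL and 1301 to 2913 CPM in female PiC-PrL libraries, which all overlapped. Cplx1, the complexin of fast synapses, had 390, 235, 343 and 470 CPM in male PiC-PrL against 96.2, 156, 323 and 144 CPM in female PiC-PrL libraries (log2 1.00 ± 0.45, adjusted p = 0.317, edgeR). Syt7, a sensor of slower release, was at 17.4, 52.8, 17.1 and 17.3 CPM in male PiC-PrL against 24.5, 76.6, 7.84 and 242 CPM in female PiC-PrL libraries (-1.75 ± 0.95, adjusted p = 0.427). Doc2a had no count in any of the 4 male PiC-PrL libraries. It had 62, 33 and 5 counts in male PiC-MeA libraries, and set against a floor of 3 counts per library its mean level was at least 11.99-fold higher there than in male PiC-PrL (adjusted p = 0.104, edgeR). In female PiC-PrL libraries it had 11, 0, 60 and 0 counts, with a mean at least 5.598-fold higher than that floor.

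Among the vesicle proteins, Sv2b, a glycoprotein of synaptic vesicles, came nearest to a call. It had 672, 445 and 273 CPM in male PiC-MeA and 839, 680 and 551 CPM in female PiC-MeA libraries, against 356, 221, 334 and 327 CPM in male PiC-PrL and 218, 160 and 199 CPM in the first 3 female PiC-PrL libraries, with 466 CPM in the fourth. The mean was higher in PiC-MeA in both sexes, and the groups did not overlap in females but did in males. The fitted change was 1.40 ± 0.40 in females (adjusted p = 0.403, edgeR) and 0.99 ± 0.28 averaged over both sexes (adjusted p = 0.0610). The average passed in 3 of 23 other settings, among them without female PiC-PrL replicate 4 (1.21, adjusted p = 0.0427).

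Syp, a tetraspan protein of the vesicle membrane, was low in most libraries and stood apart in female PiC-MeA neurons. It had 80.5, 87.7 and 107 CPM there, against 9.25, 1.75, 9.34 and 8.49 CPM in female PiC-PrL libraries, with no overlap (log2 3.67 ± 1.18, adjusted p = 0.403, edgeR; 4.47% of genes did not overlap higher). Male libraries held 7.36 to 23.9 CPM in PiC-MeA and 6.84 to 19.2 CPM in PiC-PrL. Its relative Synpr showed the opposite order in PiC-MeA neurons, at 348, 480 and 360 CPM in males against 50.5, 27.2 and 19.9 CPM in females (3.61 ± 1.24, adjusted p = 0.298, edgeR). These groups did not overlap, as was so higher for 17.5% of all genes. Over 24 other settings this Synpr change ran from 0.24, after adjustment for detected genes, to 3.93, and passed in 2, the Wald test (adjusted p = 0.0417) and no filter (adjusted p = 0.00045). Synpr ranged widely in female PiC-PrL libraries, at 554, 59.7, 520 and 0.631 CPM.

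The synapsins, which tether vesicles in the reserve pool, gave no call either. Syn2 had 361, 333 and 308 CPM in female PiC-MeA against 551, 737, 817 and 781 CPM in female PiC-PrL libraries, with no overlap (log2 -1.11 ± 0.36, adjusted p = 0.403, edgeR). Syn1 had 319, 158 and 100.0 CPM in male PiC-MeA against 439, 427 and 404 CPM in female PiC-MeA libraries, and 189, 93.1, 204 and 363 CPM in male PiC-PrL against 129, 242, 437 and 393 CPM in female PiC-PrL libraries. Averaged over both projections its male minus female change was -0.82 ± 0.36 (adjusted p = 0.429), and 0.035 after adjustment for how many genes each library detected. Over the 10 vesicle genes 6 had a positive male minus female change in PiC-MeA neurons and 4 in PiC-PrL neurons.

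Active zone genes leaned the other way from the SNARE genes in PiC-MeA neurons. There 9 of 12 had a positive male minus female change, with a median of 0.76 beside 0.12 over all genes, and for 6 every male library was above every female one (Rims1, Rims3, Unc13b, Unc13c, Erc1 and Erc2), as was so for 17.5% of all genes. Unc13b, Unc13c, Rims1, Rims2, Pclo, Erc1, Erc2 and Ppfia2 are longer than 100 kb. Over all genes of that length 80.5% were positive, with a median of 0.96. In PiC-PrL neurons 3 of 12 were positive, with a median of -0.31 beside -0.02. Between the projections 8 of 12 were positive in males (median 0.40 beside 0.16 over all genes) and 4 of 12 in females (median -0.51 beside -0.06). No active zone gene passed in any comparison. The median in PiC-MeA neurons was above 0 in 23 of 24 other settings. The highest, 2.03, came after adjustment for how many genes each library detected. Settings that left out a PiC-PrL library bear on this median only through the shared fit. The median in PiC-MeA neurons was -0.18 once the trend with gene span was removed from each library. That removal also turned the median between the projections in males to -0.46, with 5 of 12 positive.

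Rims3, a short member of the RIM family, had 150, 357 and 387 counts in male PiC-MeA libraries and 1, 2 and 0 counts in female PiC-MeA libraries. The summed level was 384 times that of female PiC-MeA libraries (95% exact interval 131 to 1864, counting error only; adjusted p = 0.298, edgeR). Female PiC-PrL libraries held 497, 2, 728 and 383 counts, 428 times the level of female PiC-MeA (146 to 2076), and 1 of them, with 2 counts, was in the range of the female PiC-MeA counts. Male PiC-PrL libraries had 6.44 to 49.1 CPM. For the interaction the adjusted p was 0.152.

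Unc13c, a priming factor known best from cerebellum, had 30.5, 94.8 and 121 CPM in male PiC-MeA against 0.731, 6.28 and 8.49 CPM in female PiC-MeA libraries, and 0.321, 0.815, 19.1 and 0.277 CPM in male PiC-PrL against 0.483, 185, 17.3 and 52.2 CPM in female PiC-PrL libraries. The male PiC-MeA libraries lay above all female PiC-MeA and male PiC-PrL libraries (log2 3.99 ± 1.93, adjusted p = 0.418, and 4.00 ± 1.72, adjusted p = 0.170, edgeR). Over all genes 17.5% lay higher in this way against female PiC-MeA and 19.2% against male PiC-PrL. In female PiC-PrL libraries Unc13c ran over 0.483 to 185 CPM (male minus female -3.63 ± 1.64, adjusted p = 0.323, edgeR). The interaction was 7.62 ± 2.56 (adjusted p = 0.165). Rims1 was low throughout, yet its male libraries were above the female ones within both projections, at 4.89, 5.12 and 3.32 CPM against 1.54, 1.21 and 0.257 CPM in PiC-MeA and at 2.43 to 9.78 CPM against 0.805 to 2.00 CPM in PiC-PrL; it is named for this after its values were seen.

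**Figure D3:**
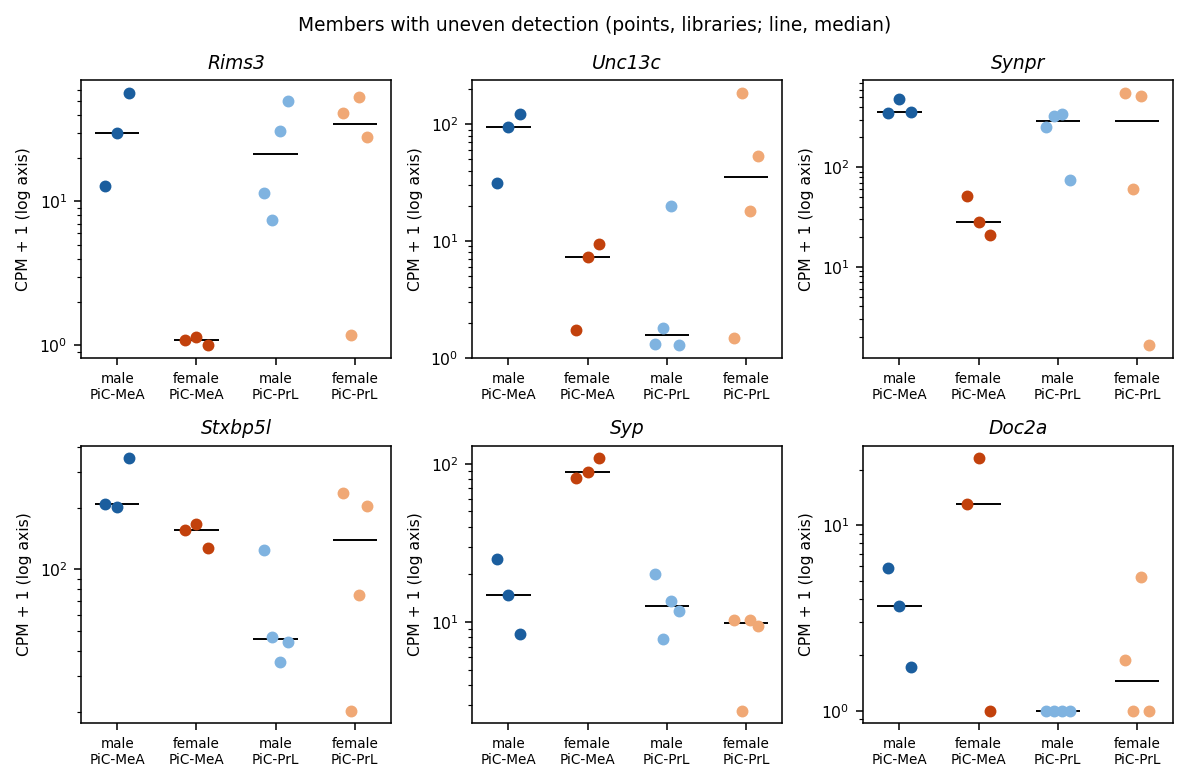
CPM + 1 (log axis) of 6 members with uneven detection in each library (points) by group, with the group median as a line. Rims3 is at the bottom in all female PiC-MeA libraries, Doc2a in all male PiC-PrL libraries, and Syp is highest in female PiC-MeA libraries.

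The 4 endocytic genes gave no call. Sh3gl2, the endophilin of synapses, stood at 331 to 810 CPM in male PiC-MeA, 670 to 722 CPM in female PiC-MeA, 549 to 911 CPM in male PiC-PrL and 668 to 863 CPM in female PiC-PrL libraries. No endocytic member failed to overlap in any of the 4 comparisons of 1 group with another, and their smallest adjusted p was 0.553. The scission GTPase Dnm1 had means of 133 ± 34.4 CPM in male PiC-MeA (SD, n = 3) and 159 ± 54.1 CPM in female PiC-MeA (n = 3), against 111 ± 42.7 CPM in male PiC-PrL (n = 4) and 168 ± 47.8 CPM in female PiC-PrL (n = 4).

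**Figure D4:**
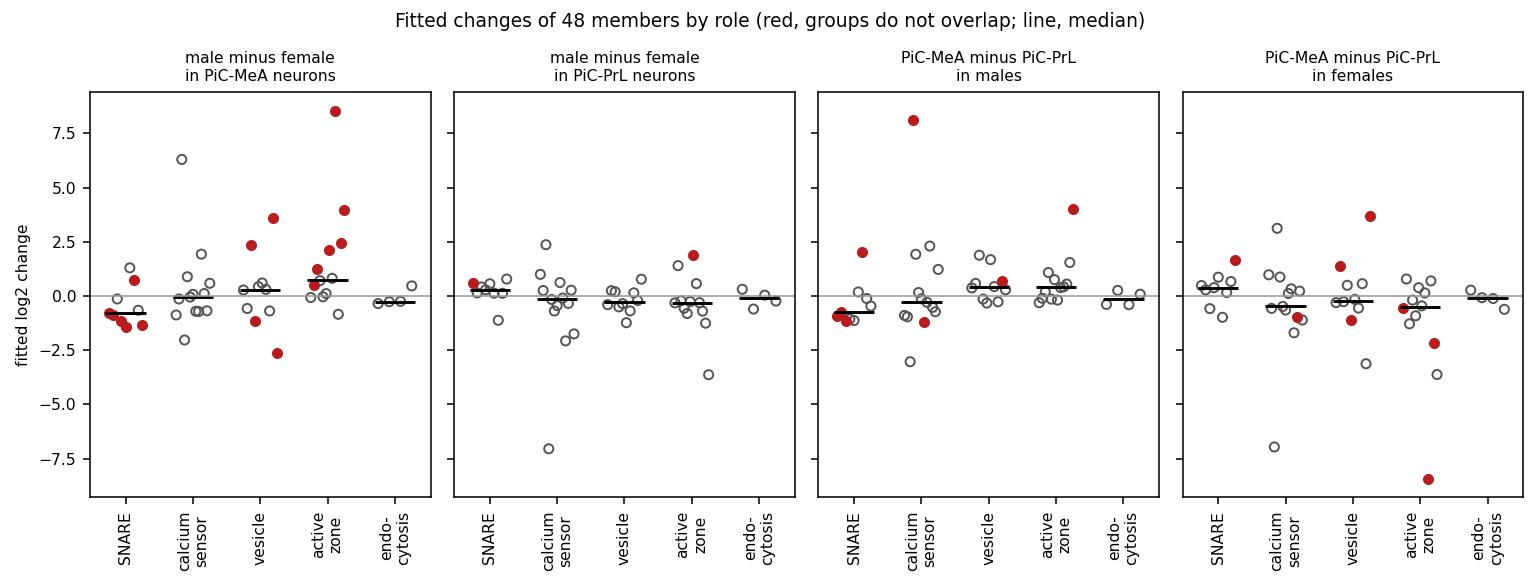
Fitted log2 change of each of the 48 members by role in 4 comparisons, with the median of each role as a line and members whose groups do not overlap in red. In PiC-MeA neurons the SNARE median is -0.78 and the active zone median 0.76 for male minus female; fitted values of members at or near 0 counts in a group (Rims3, Doc2a, Cplx3) depend on the prior count.

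The make-up of gene families was read from 8 shares, each the part of 1 gene in the summed level per exonic kilobase of its family. None of the 16 exact two-sided permutation tests, 8 for sex and 8 for projection, passed after adjustment over all 16. The smallest p was for Rims1, which made up 2.14% of the Rims sum in males and 1.02% in females (exact permutation p = 0.0214, adjusted 0.343, n = 14). Sv2b made up 64.8% of the Sv2 sum in PiC-MeA and 51.7% in PiC-PrL neurons (p = 0.0767, adjusted 0.451, exact permutation test). By sex its share was 56.5% in male PiC-MeA against 57.1% in male PiC-PrL, and 73.2% in female PiC-MeA against 46.3% in female PiC-PrL. Syn1 made up 58.6% of the synapsins in PiC-MeA and 44.4% in PiC-PrL neurons (p = 0.0971, adjusted 0.451, exact permutation test). By sex this was 45.0% in male PiC-MeA against 44.5% in male PiC-PrL, and 72.2% in female PiC-MeA against 44.3% in female PiC-PrL, and the difference between the sexes in these share differences was not tested. Vamp1 made up 3.53% of the Vamp1 and Vamp2 sum in PiC-MeA and 6.21% in PiC-PrL neurons (p = 0.357, adjusted 0.734, exact permutation test).

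Other properties of the libraries moved with the sex difference in PiC-MeA neurons. Mitochondrial genes took 4.80%, 9.23% and 15.3% of counts in male PiC-MeA against 3.29% to 3.95% in female PiC-MeA libraries, and 3.81% to 12.2% in PiC-PrL libraries. Olfactory receptor genes, which neurons of this kind are not known for, had a count for 232 to 303 genes in male PiC-MeA against 49 to 75 in female PiC-MeA libraries, and for 44 to 84 in PiC-PrL libraries. Over the 48 members the Spearman correlation between the fitted change and the span of the gene was 0.49, beside 0.35 over 14587 genes with an annotated span, as a description across genes that share libraries. Of the 21 members longer than 100 kb, 16 had a positive male minus female change in PiC-MeA neurons, with a median of 0.71 beside 0.96 over all such genes, of which 80.5% were positive. Of the 27 shorter members 8 were positive, with a median of -0.66 beside -0.08 over all short genes, of which 47.6% were positive. In PiC-PrL neurons the correlation was -0.23 over the members and -0.12 over all genes.

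**Figure D5:**
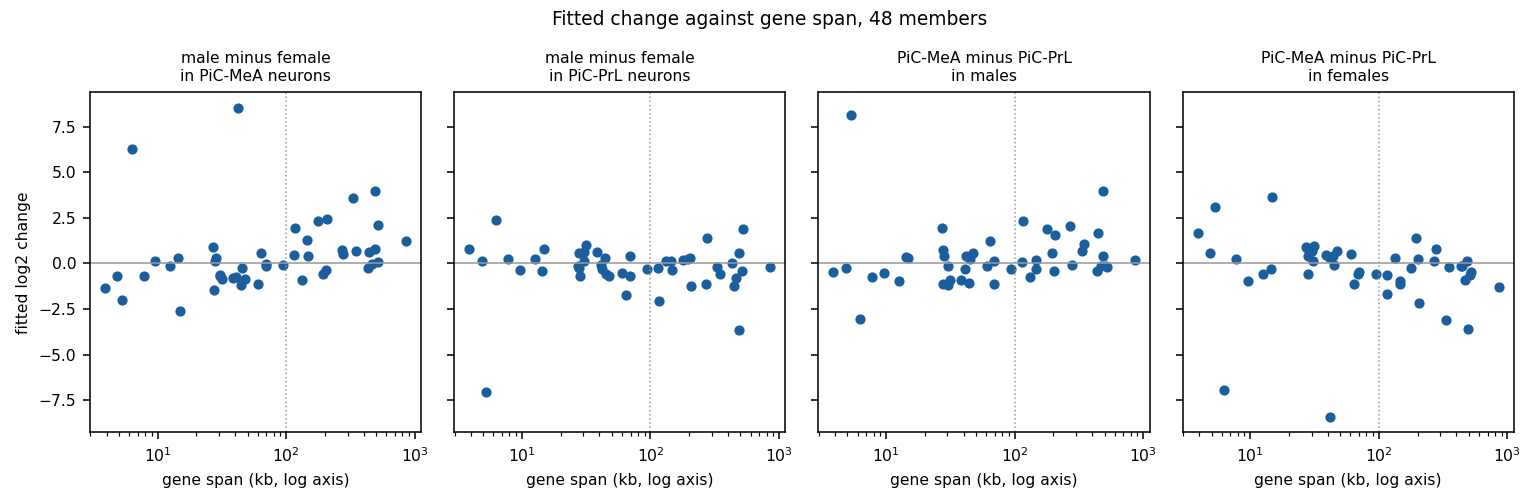
Fitted log2 change of each of the 48 members against the span of its gene (kilobases, log axis) in 4 comparisons, with a dotted line at 100 kb. For male minus female in PiC-MeA neurons 16 of the 21 longer and 8 of the 27 shorter members lie above 0.

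Markers of other cells were present as well. The 6 oligodendrocyte markers summed to 350 to 1979 CPM in male PiC-MeA and 445 to 2327 CPM in female PiC-MeA libraries. Their sums in PiC-PrL libraries were 445 to 2160 CPM in males and 335 to 2037 CPM in females. The 7 astrocyte markers summed to 1002 to 1238 CPM in male PiC-MeA against 263 to 395 CPM in female PiC-MeA libraries, and 6 of the 7 were higher there without overlap (17.5% of all genes). In PiC-PrL libraries they summed to 590 to 1919 CPM in males and 682 to 1165 CPM in females. The 6 excitatory neuron markers summed to 805 to 2030 CPM in male PiC-MeA and 1071 to 1766 CPM in female PiC-MeA libraries. Their sums in PiC-PrL were 1172 to 1633 CPM in males and 955 to 1642 CPM in females. Of them 2 were positive and 4 negative for male minus female in PiC-MeA, all with overlap. Slc17a6 had 0.237, 243 and 562 CPM in male PiC-MeA against 0 to 51.1 CPM in the other groups. Camk2a had 1670, 521 and 159 CPM against 844 to 1210 CPM in female PiC-MeA. The 10 inhibitory neuron markers summed to 154 to 3135 CPM in male PiC-MeA and 45.7 to 288 CPM in female PiC-MeA libraries, against 143 to 649 CPM in male PiC-PrL and 428 to 5881 CPM in female PiC-PrL libraries. The 5 endothelial and mural markers summed to 17.4 to 86.9 CPM in male PiC-MeA against 0.378 to 2.44 CPM in female PiC-MeA libraries, with 3 of the 4 tested not overlapping, and to 0.563 to 139 CPM in PiC-PrL libraries; of these Cldn5 was at 0 in all 14. The 6 microglial markers summed to 86.8 to 215 CPM in male PiC-MeA and 67.1 to 275 CPM in female PiC-MeA libraries, and to 99.2 to 642 CPM in PiC-PrL libraries; of these P2ry12 was at 0 in all 14. The part of these cells, of the mitochondrial share and of the higher gene detection in male PiC-MeA libraries, in the values of the SNARE and active zone genes was not tested. The part of the lower total counts of male PiC-MeA libraries was not tested either.

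A wider list of 72 further genes of vesicle release and recycling, of which 71 were in the count table and 64 entered the test, gave 3 calls in PiC-MeA minus PiC-PrL in males (0.603% of all genes) and 2 averaged over both sexes (0.822%), all lower in PiC-MeA, and 0 calls in the other 5 comparisons (edgeR), which had 0 to 4 genes higher and 1 to 6 lower at an unadjusted p under 0.05, where the shares over all genes were 5.56% to 11.8% higher and 2.05% to 8.78% lower. Cask, a scaffold kinase of the presynaptic membrane, had 121, 184 and 105 CPM in male PiC-MeA and 208, 268 and 158 CPM in female PiC-MeA libraries, against 762, 1103, 927 and 758 CPM in male PiC-PrL and 601, 601, 321 and 1010 CPM in female PiC-PrL libraries. All PiC-MeA libraries lay below all PiC-PrL libraries. The wider list was chosen with earlier results of these data known. Cask, like Ap2a2 and Ap2m1 below, was named after its values were seen. The log2 change was -2.14 ± 0.28 averaged over both sexes (adjusted p = 0.00096, edgeR) and -2.70 ± 0.40 in males (adjusted p = 0.00386), and the average call held in 22 of 23 other settings, the exception being the adjustment for how many genes each library detected (adjusted p = 1.0).

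Ap2a2, a subunit of the AP-2 adaptor of clathrin, had 94.6, 41.1 and 63.9 CPM in male PiC-MeA and 275, 144 and 175 CPM in female PiC-MeA libraries, against 198, 538, 297 and 252 CPM in male PiC-PrL and 342, 532, 381 and 380.5 CPM in female PiC-PrL libraries. It was lower in PiC-MeA averaged over both sexes (log2 -1.66 ± 0.31, adjusted p = 0.0198, edgeR) and in males (-2.27 ± 0.46, adjusted p = 0.0322), and male groups did not overlap. The average call held in 16 of 23 other settings, that in males in 16 of 24. Ap2m1, another AP-2 subunit, had 711, 379 and 176 CPM in male PiC-MeA against 1385, 1458, 1249 and 2032 CPM in male PiC-PrL libraries, with no overlap (-1.86 ± 0.39, adjusted p = 0.0370, held in 15 of 24 settings). The other AP-2 subunits did not pass and did not lie one way. Ap2b1 had 97.1, 57.3 and 50.8 CPM in male PiC-MeA against 11.2, 1.47, 1.60 and 23.9 CPM in male PiC-PrL libraries, with no overlap (2.84 ± 1.18, adjusted p = 0.153, edgeR). Between these groups 19.2% of all genes did not overlap higher. Ap2s1 had 205, 66.4 and 30.6 CPM in male PiC-MeA against 407, 199.5, 243 and 407 CPM in male PiC-PrL libraries, which overlapped (-1.64 ± 0.53, adjusted p = 0.0892). Ap2a1 had 209, 98 and 206 counts in female PiC-MeA against 1, 0, 0 and 1 in female PiC-PrL libraries (adjusted p = 0.403). Over the whole wider list the median change was -0.07 on average and -0.19 in males, beside 0.07 and 0.16 over all genes. After the same adjustment for detected genes Ap2a2 turned to 0.35 on average and 1.49 in males, and Ap2m1 to 0.79 in males.

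Some members share exons with genes on the other strand, and no source used here gives the strand setting of the counting, so their values are uncertain to that extent. The shared part was 39.4% of the exonic length of Doc2a (with Ino80e), 22.3% of Ppfia2 (Acss3), 16.8% of Syp (Gm14703), 14.5% of Syt4 (Gm26658), 14.1% of Syn3 (Timp3), 11.8% of Erc1 (Gm44317) and 11.6% of Snap47 (Jmjd4). Timp3, Gm14703 and Gm44317 were listed at 0 in all 14 libraries. Ino80e had 1 to 345 counts in the male PiC-PrL libraries in which Doc2a had none.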

How the data were processed

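Libraries were made from tubes of 4 to 5 neurons with SMART-Seq2, per the labels' protocols. The authors deposited raw read counts per gene, 1 column per library, without normalisation. The submitters' processing notes name featureCounts 2.0.1, SAMtools, HISAT2 2.2.1, Trimmomatic 0.39 and the build mm10; not given in the sources used here are annotation release, strand setting and treatment of shared reads. Positions, exon lengths and spans came from GENCODE M21 (54349 of 55401 identifiers identical, 55141 without version).

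Genes were kept by filterByExpr (minimum count 10, minimum total 15), then TMM-scaled; edgeR 4.0.16 (R 4.3.3) fitted its quasi-likelihood model, robust, to 1 mean for each group. Levels are TMM-scaled CPM; changes are male minus female or PiC-MeA minus PiC-PrL, log2 ± SE, and those of members at 0 depend on the prior count. Floors of 3 counts and exact 95% intervals cover the counting error of reads only. They leave out the amplification and the spread between tubes. DESeq2 1.42.0, limma 3.58.1 and scipy 1.17.1 served the alternatives and permutation tests; the model was tested on simulated data. The members and lists were chosen with earlier results of these data known. Members were named by the smallest p: 3 per direction in the 4 comparisons of 1 group with another and 2 per direction in the other 3, plus any that passed; Cask, Ap2a2 and Ap2m1 were named after their values were seen, and 1 further gene is not reported here. Alternatives were other size factors, filters, tests and covariates, a replicate block, removal of the trend with gene span, fits of only the groups compared, and leaving out libraries. Depth was 6132985 to 15392217 counts per library. No paired fit was used as the main result.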

Additional observations from a re-analysis of the deposited data

Results flagged for a closer look

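In 35 groups of 4 libraries of named members, 4 held a library far from the other 3. The limit used gives about 1 in 20 such groups where values are normally distributed. It was applied to CPM without a log scale, which need not be so distributed, and 4 of 35 is not read as an excess. Stxbp5l stood at 123 CPM in male PiC-PrL replicate 1, with the others at 34.1 to 45.8 CPM. Syp was at 1.75 CPM in female PiC-PrL replicate 2, with the others at 8.49 to 9.34 CPM. Syt7 reached 52.8 CPM in male PiC-PrL replicate 2, with the others at 17.1 to 17.4 CPM. Unc13c reached 19.1 CPM in male PiC-PrL replicate 3, with the others at 0.277 to 0.815 CPM. For Napb every male PiC-MeA library was below every female one while every male PiC-PrL library was above every female one; the difference between the fitted sex differences was -1.40 on the log2 scale and did not pass (adjusted p = 0.152, edgeR).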

How the results depend on the processing

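The count of members past the threshold for PiC-MeA minus PiC-PrL averaged over both sexes, 1 as reported, was 0 with DESeq2 size factors, with a filter of 10 counts in 7 libraries, with a replicate block, with adjustment for how many genes each library detected and with 3 PiC-PrL libraries removed that had the fewest genes (this last, and leaving out male PiC-MeA, were chosen after seeing the data), and 4 with the DESeq2 Wald test (1492 genes), 2 with limma voom (1277 genes) and 0 to 2 with each library left out. The same count for PiC-MeA minus PiC-PrL in males, 0 as reported, was 2 with no filter (159 of all genes), 5 with the Wald test (2022), 7 with voom (2617), 4 with only the groups compared (987), 1 with the span trend removed (80) and 0 to 3 with each library left out. For PiC-MeA minus PiC-PrL in females it was 1 with no filter and 3 with the Wald test (46 and 628 genes), for sex in PiC-MeA neurons 1, 3 and 7 (45, 777 and 1761 genes) with no filter, the Wald test and voom, for sex on average 1 with the Wald test (647 genes), and for the interaction 2, 4 and 4 (84, 1156 and 729 genes) with no filter, the Wald test and voom. The cause was not tested.

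After adjustment for how many genes each library detected, 8 named values reversed: in males Stxbp5l to -4.38, Snap25 to 0.28, Syt11 to 0.79, Ap2a2 to 1.49 and Ap2m1 to 0.79, on average Ap2a2 to 0.35 and Syn1 (sex) to 0.035, and Syt11 in the interaction to 0.63. The number of detected genes separated male PiC-MeA from all other libraries, so these reversals cannot be told apart from the difference of that group itself. Over the other settings of named genes, apart from leaving out a library, 344 values kept direction and side of the threshold, 36 newly passed and 15 no longer passed; with a library left out these numbers were 547, 8 and 19. Family shares reversed with a library left out for Syt2 (sex -0.136 to 0.331, projection -0.101 to 0.366 percentage points), Cplx1 (sex -1.98 to 7.59), Rims1 (projection -0.433 to 0.0420), Unc13a (projection -3.16 to 9.90) and Sv2b (sex -4.97 to 0.183), none of which had passed. Residuals of libraries with the same replicate number correlated at -0.0388 to 0.0407 over 19 pairs, and 3 of 14 libraries correlated best with their own number. These values give no sign that the numbers pair the tubes, but with so few tubes they cannot exclude it. The replicate block changed no other member count. The median change of all genes in males, 0.16 as reported, was 1.63 with voom, 0.87 with the block and -0.15 with only the groups compared. Groups of 3 and 4 tubes limit what can be called, and members under 10 counts, such as Cplx3 and Sv2c, give no firm fold.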
